A study of Mus musculus with 42 samples.

Results

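The dorsal and ventral zones of the mouse main olfactory epithelium are marked by known genes, and 9 such genes were followed through 42 RNA libraries. They were chosen by name for their known zone, with earlier results of these data known. The dorsal genes were Nqo1, Acsm4 and Robo2, the ventral genes were Ncam2, Nfia, Nfib, Nfix and Nrp2, and Sema3f, a secreted ligand, was treated on its own. These were 9 of the 44674 genes in the count table, and each of the 9 was among the 21168 genes tested.

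Adult male C57BL/6NCrl mice smelled for 1 h a normal chow diet (NCD), a bacon-flavoured diet (BFD, labelled Bacon), a lard-based high-fat diet (HFD), or no odour. Each pool held 4 epithelia, and ribosomes were pulled down from it with an antibody against phosphorylated ribosomal protein S6 (pS6). The pulldown and an input library made without it were sequenced from 21 pools: 5 had no odour, 6 had NCD, 5 BFD and 5 HFD odour. Each value is therefore a mean over pooled mice. Total counts per library ran from 24839555 to 36781553 in the inputs and from 25392812 to 36738330 in the pulldowns.

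Sensory neurons of the olfactory epithelium choose 1 receptor gene from the part of the repertoire that their zone permits, and their axons reach the matching dorsal or ventral part of the olfactory bulb. Guidance receptors carry this order to the bulb: Robo2 answers Slit proteins in dorsal axons, and Nrp2 answers Sema3f in ventral axons, where Sema3f is released by early arriving dorsal axons. S6 becomes phosphorylated in neurons that are active, so mRNA on pS6-marked ribosomes is enriched for the mRNA of active cells.

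On the GRCm38 genome Nqo1 lies on chromosome 8 from 107388225 to 107403206, Acsm4 on chromosome 7 from 119690026 to 119714565, and Robo2 on chromosome 16 from 73891839 to 74411825. Ncam2 lies on chromosome 16 from 81200697 to 81626828, and Nrp2 on chromosome 1 from 62703285 to 62818695. Nfia and Nfib share chromosome 4, from 97772734 to 98118874 and from 82290173 to 82705750. Nfix lies on chromosome 8 from 84699876 to 84800344, and Sema3f on chromosome 9 from 107681500 to 107710475. The genes of a zone are therefore not neighbours. The exons of Nfia and Nfix touch genes on the opposite strand, by 4 bases in Nfia (E130114P18Rik) and by 4 (Lyl1) and 137 bases (G430095P16Rik) in Nfix, and the library kit kept no strand. Over the 42 libraries these 3 neighbours had 3365, 2288 and 2692 counts, beside 186942 for Nfia and 320038 for Nfix. Of the 31-base words in the transcripts of each member, none of those of Nqo1, Acsm4 and Robo2 occurred in another gene, and between 0.372% and 1.65% did in the other 6.

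A pair of libraries stood apart from the rest of their groups. In the input of no-odour pool 4, 30.3% of genes lay more than 0.5 log2 units from their group's median, against 12.6% to 15.5% in the other 4 inputs. In the pulldown of BFD pool 1 the share was 34.0%, against 14.1% to 16.1% in the other 4 pulldowns. Results that rest on either pool are given with and without it, a setting chosen after the values had been seen. Ribosomal RNA also moved with the groups. Its share of the input counts was 28.1% ± 4.21 (SD, n = 5) without odour, 15.8% ± 2.45 (n = 6) with NCD, 11.8% ± 1.62 (n = 5) with BFD and 15.6% ± 4.66 (n = 5) with HFD odour, and in the pulldowns 23.9% ± 5.97, 14.6% ± 4.18, 14.6% ± 1.10 and 13.4% ± 3.26. Levels are given as CPM, counts scaled to a common library size with TMM, the trimmed mean of M-values. In such bulk tissue, fewer cells of a type and less RNA per cell cannot be told apart.

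Per kilobase of exon, the input level of the 9 genes without odour followed neither zone. Acsm4, an acyl-CoA synthetase of dorsal neurons, stood first at 75.0 ± 3.71 CPM per kb (SD, n = 5), and Nqo1, a quinone reductase whose mRNA is a classical dorsal marker, came next at 59.6 ± 4.52. The ventral genes filled the middle. Nfix had 22.6 ± 4.20, Nrp2 18.3 ± 1.98, Nfia 15.0 ± 1.27, Nfib 11.9 ± 2.32 and Ncam2 7.44 ± 0.459 CPM per kb. Robo2, also dorsal, came after them at 2.02 ± 0.081, and Sema3f was last at 1.35 ± 0.159. Pools of Nfix and Nrp2 overlapped on this scale, from 15.3 to 25.8 and from 14.9 to 19.5, and so did those of Nrp2 and Nfia, and of Nfia and Nfib, since no-odour pool 4 was the lowest in each of the 4 genes. In the pulldown without odour Nfix moved ahead of Nqo1, with 38.9 against 32.2 CPM per kb, and Acsm4 again stood first with 71.3.

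The pulldown was set against the input without odour to see which zone genes were favoured on pS6-marked ribosomes at rest. Each zone had genes on both sides. Of the 9 genes 5 passed the test (edgeR, adjusted p under 0.001), 3 higher and 2 lower in the pulldown, where 35.8% of all genes tested passed. Among the dorsal genes Nqo1 was lower and Robo2 higher; among the ventral genes Nfia was lower and Nfix higher. The median log2 change was −0.07 over the 3 dorsal and −0.04 over the 5 ventral genes (−0.09 without no-odour pool 4), beside 0.01 over all genes.

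Nqo1 had 96.1, 94.5, 91.7, 99.6 and 81.2 CPM in the 5 inputs without odour (replicates 1, 2, 3, 4 and 6) and 51.2, 51.3, 51.4, 44.4 and 51.7 in their pulldowns. All 5 pulldowns lay below all 5 inputs, and the pulldown of pool 4 was the lowest. The log2 change was −0.89 (SE 0.06, adjusted p = 1.1e-11), at percentile 12.3 of all genes. Robo2, a receptor for Slit repellents, went the other way, from a median of 34.4 CPM in the inputs to between 43.9 and 47.0 in the pulldowns, with a log2 change of 0.42 (SE 0.05, adjusted p = 2.3e-07, higher in 5 of 5 pools). Acsm4 had a log2 change of −0.07 (SE 0.05, adjusted p = 0.251), and its pulldowns (151 to 160 CPM) overlapped its inputs (149 to 169 CPM).

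Nuclear factor I proteins, encoded by Nfia, Nfib and Nfix, are transcription factors that help to set ventral receptor choice, and the 3 genes split in the pulldown. Nfix had 182, 178, 168, 113 and 189 CPM in the inputs and 294, 285, 287, 294 and 270 in the pulldowns. Every pulldown exceeded every input of Nfix, and input 4 stood far below the other inputs. The log2 change was 0.80 (SE 0.08, adjusted p = 1.0e-08), and 0.65 with pool 4 left out. Nfia had 168, 170, 168, 139 and 173 CPM in the inputs and 97.7, 106, 107, 98.0 and 115 in the pulldowns. Here every pulldown lay below every input, with a log2 change of −0.64 (SE 0.08, adjusted p = 1.3e-07). For Nfib the log2 change was 0.09 (SE 0.09, adjusted p = 0.403), and its sign turned with a single pool: it was −0.07 (adjusted p = 0.342) without no-odour pool 4. Over the other settings its adjusted p ran from 0.385 to 0.722.

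The remaining ventral genes did not pass. Ncam2, a cell adhesion molecule of ventral axons, had a log2 change of −0.07 (SE 0.07, adjusted p = 0.412), and Nrp2, a semaphorin receptor, one of −0.04 (SE 0.07, adjusted p = 0.641), which was −0.16 (adjusted p = 0.0305) without no-odour pool 4; over the other settings the adjusted p of Nrp2 ran from 0.0355 to 0.656. Sema3f, the ligand of Nrp2, was low in the inputs, with 6.54, 7.43, 6.23, 6.52 and 8.24 CPM, and reached 14.3, 13.2, 13.5, 13.3 and 11.3 CPM in the pulldowns. No pulldown of Sema3f overlapped an input. The log2 change was 0.91 (SE 0.12, adjusted p = 4.2e-07), at percentile 91.3 of all genes. Each of the 5 calls held when any 1 of the 21 pools was left out.

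With odour the pulldown differed from the input in the same 5 genes and in the same directions. Of the 9 genes, 5 passed with NCD odour, beside 46% of all genes, 5 with BFD odour, beside 41.3%, and 7 with HFD odour, beside 42.7%. Nqo1 had log2 changes of −0.75, −0.45 and −0.58 with NCD, BFD and HFD, and Nfia −0.88, −0.92 and −0.90. Robo2 had 0.33, 0.26 and 0.31, Nfix 0.50, 0.37 and 0.34, and Sema3f 0.70, 0.58 and 0.74. With HFD odour Acsm4 (0.26, SE 0.05, adjusted p = 1.3e-04) and Ncam2 (−0.31, SE 0.07, adjusted p = 2.4e-04) passed as well. A few more values came near the threshold without passing it: Ncam2 and Acsm4 with NCD (−0.23, adjusted p = 0.0019, and −0.15, adjusted p = 0.0089) and Ncam2 and Nfib with BFD (−0.23, adjusted p = 0.0049, and −0.33, adjusted p = 0.0015).

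Several of these calls rested on single pools. With BFD odour Robo2 was lost without BFD pool 4 or 5 (0.24 without either, adjusted p = 0.0013), Sema3f without BFD pool 2 or 3 (0.54 and 0.52, adjusted p = 0.0010 and 0.0014), and Nfix without BFD pool 2, 3 or 5 (0.32 to 0.36, adjusted p from 0.0021 to 0.0043). With HFD odour Acsm4 was lost without HFD pool 5 or 6 (0.24 and 0.22, adjusted p = 0.0015 and 0.0021), and Ncam2 without HFD pool 2 or 3 (−0.22 and −0.28, adjusted p = 0.0048 and 0.0028). Nfix with HFD odour, at an adjusted p of 9.8e-04, passed in 4 of 21 cases, those without no-odour pool 4 or 6 or BFD pool 1 or 3, with log2 changes from 0.30 to 0.36 and adjusted p from 1.6e-05 to 0.0090 over the 21 refits. Other calls appeared, Ncam2 with NCD odour without HFD pool 2 (−0.23, adjusted p = 3.5e-04) and Nfib with BFD odour without no-odour pool 4 (−0.33, adjusted p = 1.7e-05).

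The fit mattered as well. Ncam2 with NCD odour passed in 6 of 8 settings (adjusted p from 1.7e-04 to 0.0029) and Nfib with BFD odour in 5 of 8 (6.8e-06 to 0.0168). Acsm4 with NCD odour passed in DESeq2 alone (−0.18, adjusted p = 2.9e-04, and up to 0.0139 over 8 settings). DESeq2 called 5, 7, 6 and 7 of the 9 genes without odour and with NCD, BFD and HFD odour, beside 39.1%, 49%, 45% and 46.1% of all genes. Calls were lost too: with no filter beyond 1 count Robo2 with BFD (0.25, adjusted p = 0.0015) and Acsm4 with HFD odour (0.22, adjusted p = 0.0038), and with the ribosomal RNA covariate Sema3f with BFD odour (0.50, adjusted p = 0.0030), each the 1 loss in 8 settings, with lowest adjusted p of 2.3e-05, 1.1e-05 and 6.2e-06. With the replicate number as a block Nfix was lost with BFD (0.36, adjusted p = 0.0015) and with HFD odour (0.36, adjusted p = 0.0015), and over 8 settings it passed in 6 with BFD (adjusted p from 6.0e-07 to 0.0015) and in 4 with HFD odour (3.2e-06 to 0.0036).

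**Figure D1:**
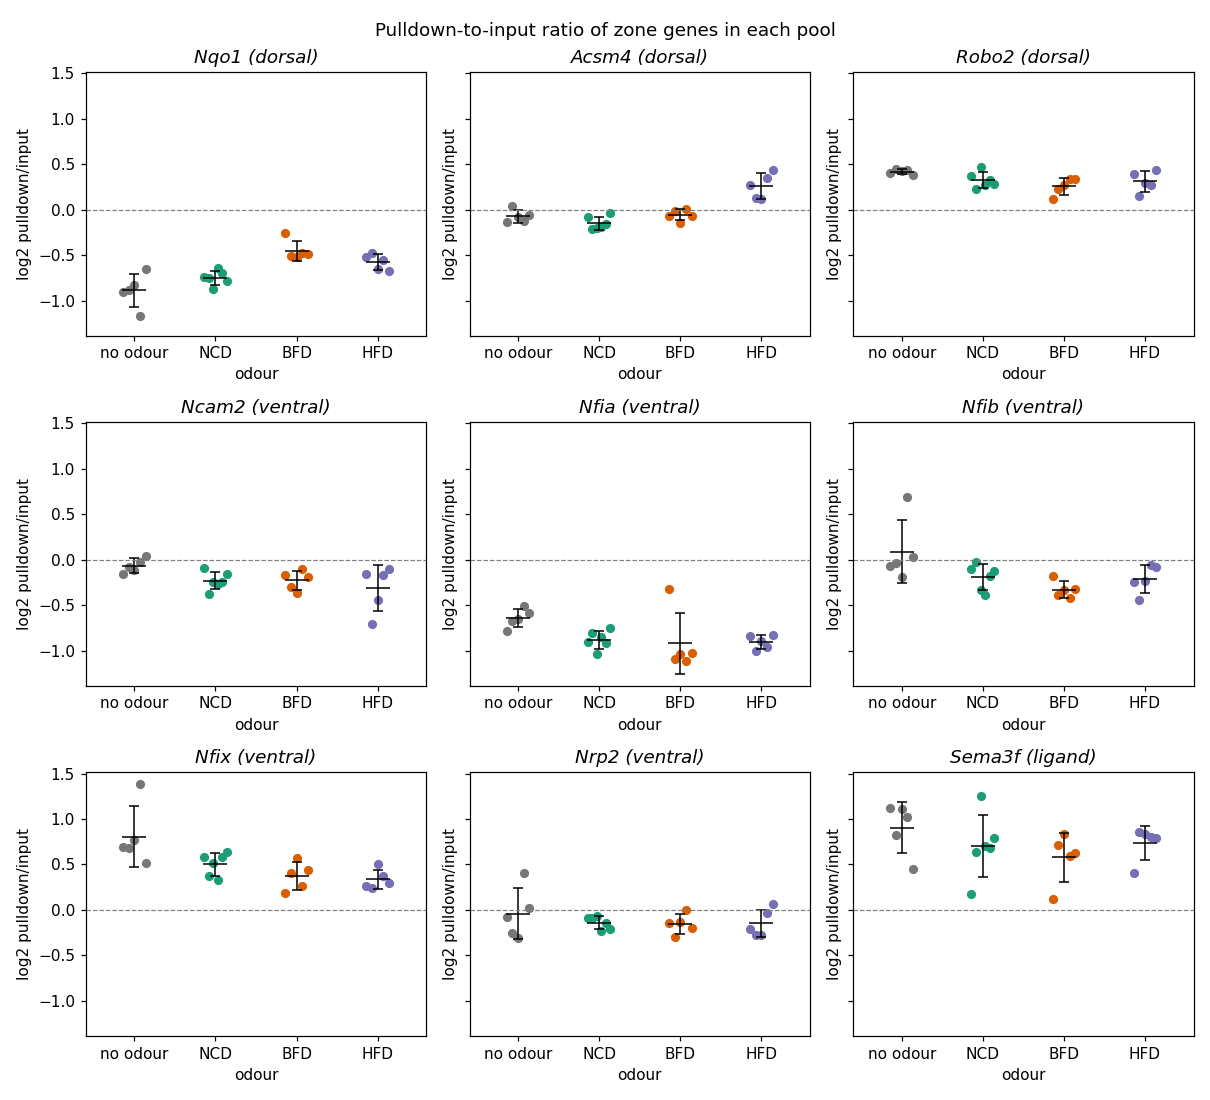
Log2 pulldown-to-input ratio of TMM-scaled CPM (vertical axis, with the dashed line at equal levels) of each of the 9 genes in each of 21 pools, by odour group (horizontal axis), with 1 panel a gene; points are pools and bars are the mean and SD. Nqo1 and Nfia lay below the line in all 21 pools, and Robo2, Nfix and Sema3f above it in all 21. No-odour pool 4 was the highest of its group in Nfia, Nfib, Nfix and Nrp2.

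Each odour was then compared with no odour on the pulldown-to-input ratio, to ask whether the place of the zone genes on pS6-marked ribosomes moved when mice smelled a diet. These 3 comparisons share the 5 no-odour pools. The share of all genes whose groups of pools did not overlap is not given here. A lack of overlap therefore describes the pools of a gene and does not set it apart from other genes. Nqo1 rose with BFD odour, the 1 change among the 9 genes that passed; 3.78% of all genes passed in that comparison. With NCD and with HFD odour 0 of 9 passed in edgeR, beside 0.524% and 1.22% of all genes; 3 and 6 of the 9 had an unadjusted p under 0.05, beside 27.9% and 29.6% of all genes, and DESeq2 with the same design called 0 and 1, beside 2.65% and 4.12%. With BFD odour 5 of the 9 had an unadjusted p under 0.05 in edgeR, beside 33.6% of all genes. The median log2 change of the dorsal genes was −0.08 with NCD, 0.01 with BFD and 0.31 with HFD odour. That of the ventral genes was −0.24, −0.28 and −0.26, or −0.15, −0.23 and −0.22 without no-odour pool 4, and that of all genes lay between −0.01 and 0.00.

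The ratio of Nqo1 was 0.532, 0.543, 0.561, 0.445 and 0.637 without odour and 0.837, 0.701, 0.695, 0.717 and 0.713 with BFD odour. All 5 BFD pools lay above all 5 no-odour pools, and BFD pool 1 was the highest. This rise was 0.44 on the log2 scale (SE 0.08, adjusted p = 7.1e-04). With HFD odour the ratio was 0.698, 0.716, 0.637, 0.679 and 0.625 (replicates 1, 2, 3, 5 and 6), above all no-odour pools in 4 of 5, with a log2 change of 0.31 (SE 0.08, adjusted p = 0.0138). With NCD odour it ran from 0.546 through a median of 0.597 to 0.639 and overlapped the pools without odour, with a log2 change of 0.14 (SE 0.08, adjusted p = 0.266).

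Both libraries moved in the BFD comparison of Nqo1. The pulldown had 60.1, 55.5, 53.5, 59.9 and 58.1 CPM with BFD odour, each above the 44.4 to 51.7 CPM without odour, while the input had 71.8, 79.1, 77.0, 83.6 and 81.5 CPM, of which 3 lay below every no-odour input. The pulldowns with NCD (53.7 to 63.1, median 58.2 CPM) and with HFD odour (58.6, 54.8, 59.2, 60.5 and 59.4 CPM) did not overlap those without odour either. In a fit of the pulldown libraries alone the BFD change of Nqo1 was 0.21 (adjusted p = 0.0123, which did not pass).

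The call of Nqo1 with BFD odour was narrow. It was kept without 7 of the 21 pools and lost without each of the other 14: no-odour pools 1, 2, 3 and 4, NCD pools 1, 5 and 6, BFD pools 1 to 5, and HFD pools 3 and 5. Over these 21 refits the log2 change ran from 0.38 to 0.50 and the adjusted p from 2.4e-04 to 0.0020. Without no-odour pool 4 and BFD pool 1 together it was 0.32 (adjusted p = 0.0018). A covariate for ribosomal RNA gave 0.43 (adjusted p = 0.0185), and the replicate number as a block gave 0.44 (adjusted p = 0.0027). Of 11 such settings 6 kept the call, with adjusted p from 1.1e-05 to 0.0185 over all 11.

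Acsm4 had its highest ratio with HFD odour. Its pulldown had 154, 153, 151, 151 and 160 CPM without odour and 198, 187, 190, 206 and 209 with HFD odour, and the ratio went from 0.910, 1.03, 0.944, 0.916 and 0.962 to 1.21, 1.09, 1.08, 1.27 and 1.36. Neither the pulldowns nor the ratios of these groups overlapped. The 6 NCD pulldowns of Acsm4 (163 to 173 CPM) also lay above all 5 without odour, and 4 of 5 BFD pulldowns (156 to 189 CPM) did. The log2 change of the ratio was 0.33 (SE 0.08), which did not pass in edgeR (adjusted p = 0.0046) and did in DESeq2 with the same design (0.33, adjusted p = 1.5e-04). Over 11 settings 3 gave a call, with adjusted p from 1.8e-05 to 0.0319. With NCD and BFD odour the ratio of Acsm4 overlapped that without odour, with log2 changes of −0.08 (SE 0.07) and 0.01 (SE 0.08). For Robo2 the ratio was 1.30 to 1.36 without odour and 1.08 to 1.27 with BFD odour. These groups of Robo2 did not overlap, and the log2 change of −0.16 (SE 0.07, adjusted p = 0.132) did not pass.

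The 5 ventral genes had negative log2 changes of the ratio in each of the 3 odour comparisons, from −0.10 in Nrp2 with NCD to −0.47 in Nfix with HFD odour, and none passed in edgeR. Those of Nrp2 turned with 1 pool: without no-odour pool 4 they were 0.02, 0.01 and 0.01. Nfix had the lowest values. Its ratio was 1.61, 1.60, 1.71, 2.61 and 1.43 without odour, 1.13, 1.32, 1.48, 1.20 and 1.36 with BFD and 1.20, 1.18, 1.42, 1.30 and 1.23 with HFD odour. The HFD pools lay below every no-odour pool, and 4 of 5 BFD pools did. The log2 change of Nfix was −0.43 (SE 0.12, adjusted p = 0.0092) with BFD and −0.47 (SE 0.12, adjusted p = 0.0091) with HFD odour, and −0.24 and −0.33 without no-odour pool 4 and BFD pool 1. DESeq2 on the pulldown divided by the input called Nfix with HFD odour (−0.50, adjusted p = 7.3e-04), the 1 call in 11 settings, whose adjusted p ran up to 0.742. Nfib had −0.27, −0.41 (adjusted p = 0.0139) and −0.30 with NCD, BFD and HFD odour, and −0.12, −0.26 and −0.14 without no-odour pool 4. In the pulldown libraries alone the BFD and HFD changes of Nfix were 0.05 and 0.03.

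The BFD comparison of Nfia turned on the other library that stood apart. Its ratio was 0.580, 0.625, 0.639, 0.704 and 0.666 without odour and 0.800, 0.470, 0.486, 0.462 and 0.492 with BFD odour. BFD pool 1 was the highest of the 10 and the other 4 BFD pools were below all 5 without odour. The log2 change was −0.28 (SE 0.11, adjusted p = 0.0723) with all pools. Without BFD pool 1 it was −0.43 and passed (adjusted p = 2.1e-04), and without that pool and no-odour pool 4 it was −0.39 (adjusted p = 2.1e-04). Over the settings that kept BFD pool 1 none passed, and the adjusted p of Nfia over all settings ran from 2.1e-04 to 0.952. With HFD odour the ratios of Nfia (0.499 to 0.564) lay below all 5 without odour, and with NCD odour 5 of 6 did; these changes, −0.26 (SE 0.11, adjusted p = 0.106) and −0.24 (SE 0.11, adjusted p = 0.139), did not pass. For Sema3f the log2 changes were −0.20, −0.33 and −0.16 with NCD, BFD and HFD odour (SE 0.16, 0.17 and 0.17), and the ratios overlapped in each comparison. As each pool was left out these changes of Sema3f ran from −0.32 to −0.10, from −0.45 to −0.21 and from −0.28 to −0.07, lowest without no-odour pool 6 and highest without NCD pool 1, BFD pool 1 and HFD pool 1, and none passed.

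Between odours 0 of 9 genes passed on the ratio in edgeR. All genes passed at rates of 0.00945% for BFD against NCD, 0.0236% for HFD against NCD and 0.0378% for HFD against BFD odour. An unadjusted p under 0.05 was reached by 1, 2 and 1 of the 9, beside 7.24%, 4.62% and 8% of all genes. DESeq2 with the same design called 0, 1 and 0, beside 0.0283%, 0.0756% and 0.0945%. The gene behind that 1 call was Acsm4: its ratio with NCD odour ran from 0.864 through a median of 0.885 to 0.973, below all 5 HFD pools. The log2 change for HFD against NCD odour was 0.41 (SE 0.07, adjusted p = 0.0103 in edgeR and 4.8e-06 in DESeq2, from 1.2e-06 to 0.0388 over 11 settings), and for HFD against BFD odour it was 0.32 (SE 0.08, adjusted p = 0.120). Nqo1 had 0.30 (SE 0.08, adjusted p = 0.467) for BFD against NCD odour.

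The inputs show the level of the zone genes in the whole tissue after an odour. Against no odour, 0 of 9 genes passed with NCD, 1 with BFD and 0 with HFD odour in edgeR, where 0.968%, 13.1% and 0.935% of all genes passed. An unadjusted p under 0.05 was reached by 5, 8 and 5 of the 9, beside 34.8%, 46.1% and 34% of all genes, and DESeq2 called 1, 3 and 2, beside 6.43%, 20.7% and 6.13%. The 1 gene in edgeR was Nfix. The median log2 change of the ventral genes was 0.23, 0.28 and 0.27 with NCD, BFD and HFD odour, or 0.14, 0.26 and 0.20 without no-odour pool 4, that of the dorsal genes 0.14, 0.11 and 0.03, and that of all genes lay between −0.02 and 0.01.

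Nfix input had 231, 228, 215, 231 and 230 CPM with BFD odour and 239, 254, 209, 221 and 231 with HFD odour. Both groups lay above all 5 no-odour inputs (113 to 189 CPM), and the NCD inputs, from 184 through a median of 201 to 220 CPM, overlapped them in 1 pool. The log2 change was 0.45 (SE 0.09, adjusted p = 5.5e-04) with BFD, 0.47 (SE 0.09, adjusted p = 0.0018) with HFD and 0.27 (SE 0.09, adjusted p = 0.0292) with NCD odour, the last 0.16 without no-odour pool 4. The BFD call was lost without no-odour pool 2 or 3 or any 1 of the 5 BFD pools. Over all 21 refits the log2 change ran from 0.33 (without no-odour pool 4, where it passed) to 0.50 and the adjusted p from 9.3e-05 to 0.0023. With HFD odour Nfix passed without no-odour pool 4 (0.35, adjusted p = 2.4e-04) or 6 (0.52, adjusted p = 5.9e-04). A covariate for ribosomal RNA gave a BFD change of 0.25 (adjusted p = 0.673) for Nfix, and a fit of the compared groups alone gave 0.44 (adjusted p = 0.0107). Of 8 settings 5 kept the BFD call, with adjusted p from 2.9e-05 to 0.673.

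Nfia and Nfib had input changes of the same sign that did not pass in edgeR. Nfib input was 190, 190, 196, 116 and 197 CPM without odour and between 228 and 244 with BFD odour, and Nfia input went from 139 to 173 CPM without odour to 194, 195, 197, 191 and 193 with BFD odour. In both genes no BFD input overlapped a no-odour input, a description without the share over all genes. The HFD inputs of Nfia (189 to 210 CPM) and Nfib (202 to 264 CPM) also lay above all those without odour. So did the NCD inputs of Nfib (198 to 238 CPM) and 3 of 6 NCD inputs of Nfia. The log2 changes were 0.40 (SE 0.10, adjusted p = 0.0038) for Nfib and 0.24 (SE 0.06, adjusted p = 0.0032) for Nfia, and 0.25 and 0.18 without no-odour pool 4 and BFD pool 1. Nfia passed in DESeq2 with BFD (0.24, adjusted p = 2.9e-04) and with HFD odour (0.26, adjusted p = 2.1e-04); over 8 settings its adjusted p ran from 2.9e-04 to 0.978 and from 2.1e-04 to 0.706.

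Ncam2 and Robo2, of opposite zones, had similar input changes with BFD odour, 0.28 (SE 0.08, adjusted p = 0.0044) and 0.24 (SE 0.06, adjusted p = 0.0028). Ncam2 ran from 78.4 to 89.4 CPM without odour and from 96.3 to 114 with BFD, and Robo2 had a median of 34.4 CPM without odour and ran from 38.2 to 43.4 with BFD. Neither gene's groups overlapped. Robo2 passed in DESeq2 (0.23, adjusted p = 5.1e-04, and up to 0.884 over 8 settings). Nrp2 ran from 176 to 231 CPM without odour and from 236 to 242 with BFD odour, with a log2 change of 0.13 (SE 0.06, adjusted p = 0.102), and 0.05 without no-odour pool 4. Acsm4 stood out with NCD odour, where its 6 inputs (178 to 199, median 186 CPM) lay above all 5 without odour (149 to 169 CPM). That change was 0.21 (SE 0.05, adjusted p = 0.0081 in edgeR and 1.9e-04 in DESeq2, and up to 0.682 over 8 settings). Nqo1 had an input change of −0.24 (SE 0.07, adjusted p = 0.0083) with BFD odour.

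Between odours 0 of 9 inputs passed in edgeR, at rates over all genes of 0.104% for BFD against NCD, 0.0567% for HFD against NCD and 0.0803% for HFD against BFD odour. An unadjusted p under 0.05 was reached by 3, 4 and 2 of the 9, beside 21.5%, 6.51% and 18.2% of all genes, and DESeq2 called 1, 0 and 0, beside 0.591%, 0.213% and 0.189%. That 1 gene was Nqo1, with 71.8 to 83.6 CPM with BFD odour against 90.1 to 109 with NCD odour. The groups of Nqo1 did not overlap. Their log2 change was −0.33 (SE 0.07, adjusted p = 0.0115 in edgeR, 3.1e-04 in DESeq2, from 1.9e-04 to 0.0961 over 8 settings), and it passed in edgeR without no-odour pool 4 (−0.34, adjusted p = 9.6e-04).

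**Figure D2:**
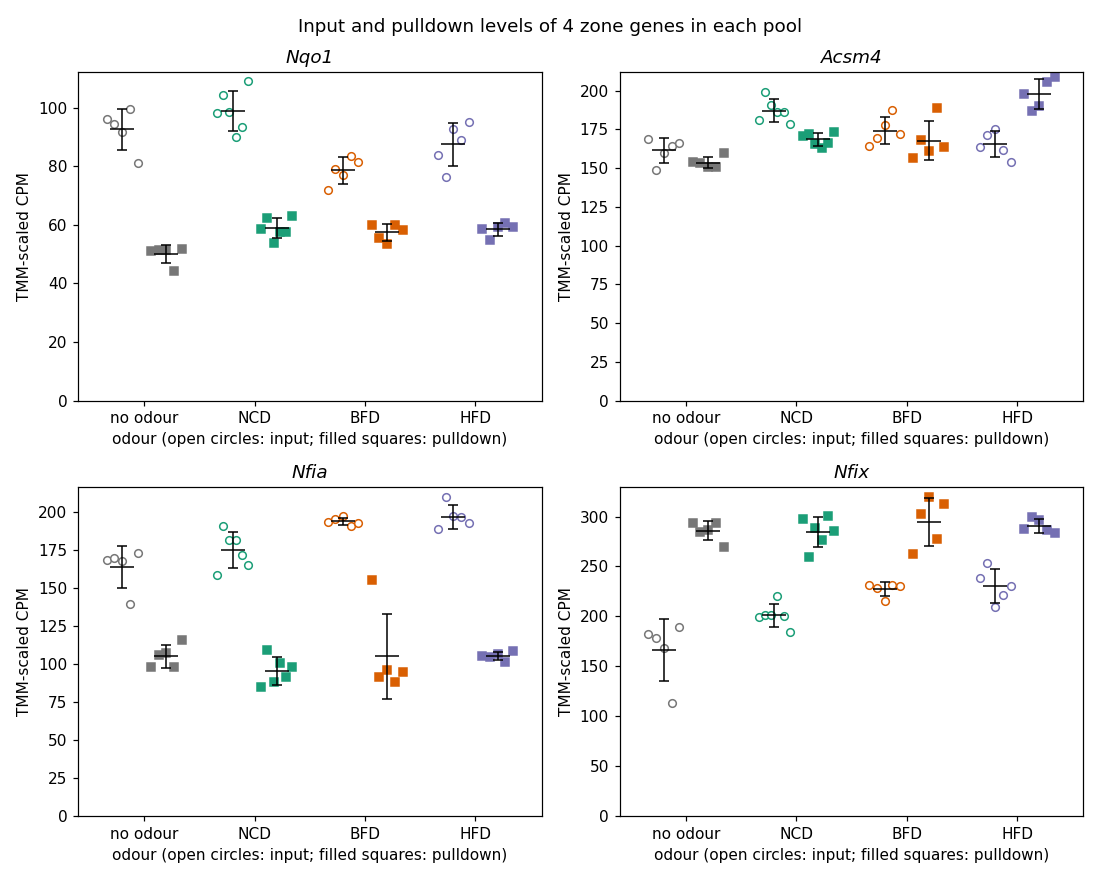
TMM-scaled CPM (vertical axis, from 0) of Nqo1, Acsm4, Nfia and Nfix in each pool by odour group (horizontal axis); open circles are inputs, filled squares are pulldowns, and bars are the mean and SD of 5 or 6 pools. The Nfix input of no-odour pool 4 (113 CPM) and the Nfia pulldown of BFD pool 1 (155 CPM) stand apart, and the HFD (187 to 209 CPM) and NCD pulldowns of Acsm4 (163 to 173 CPM) lie above those without odour.

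The zones were also set side by side within each pool, as the mean log2 value of the 3 dorsal genes minus that of the 5 ventral genes, with no test. For the ratio this difference was −0.13, −0.06, −0.07, −0.68 and −0.11 in the pools without odour. Pool 4 was far below the other 4. The mean was −0.21 ± 0.26 (SD, n = 5) and −0.09 without pool 4. With NCD odour it was −0.00 ± 0.06 (n = 6), from −0.06 through a median of −0.01 to 0.09. With BFD odour it was 0.05, 0.24, 0.13, 0.23 and 0.18 (mean 0.17 ± 0.08), and with HFD odour 0.28, 0.36, 0.19, 0.19 and 0.19 (mean 0.24 ± 0.08). Every BFD and HFD pool was thus above every pool without odour, and the BFD and HFD pools overlapped. The 3 dorsal genes did not move alike in this. The mean log2 ratio of Nqo1 was −0.89 without odour, −0.45 with BFD and −0.58 with HFD odour. That of Acsm4 was −0.07, −0.06 and 0.26, and that of Robo2 fell from 0.42 to 0.26 and 0.31.

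Both libraries entered these differences. In the inputs the mean was −0.94 ± 0.21 without odour, −0.97 ± 0.07 with NCD, −1.22 ± 0.05 with BFD and −1.16 ± 0.10 with HFD odour. In the pulldowns it was −1.15 ± 0.08, −0.97 ± 0.03, −1.05 ± 0.12 and −0.92 ± 0.03. Without no-odour pool 4, at −0.58 in the inputs against −1.09 to −0.95 in the other 4, the no-odour input mean was −1.03. The inputs with BFD odour (−1.29 to −1.16) lay below all 5 without odour, and those with HFD odour (−1.32 to −1.07) overlapped them. In the pulldowns the NCD (−1.01 to −0.94) and HFD pools (−0.95 to −0.87) lay above all 5 without odour (−1.25 to −1.08), while BFD pool 1 (−1.24) lay among them and the other 4 BFD pools (−1.06 to −0.93) above. As levels of genes of unlike length enter it, only its differences between groups can be read.

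Members of a zone were also compared from pool to pool in the inputs. Pearson's r of log2 CPM was computed over the 21 inputs after each group's mean had been removed, for 36 pairs of genes that share these libraries, with permutation tests within groups (two-sided) adjusted over the 36 pairs. The median r was −0.02 over the 3 dorsal pairs (−0.36 to 0.33), 0.69 over the 10 ventral pairs (−0.07 to 0.92) and 0.02 over the 15 pairs of a dorsal with a ventral gene (−0.59 to 0.69). Without no-odour pool 4 these medians were −0.05, 0.43 and 0.19. Much of the likeness among ventral genes therefore came with 1 pool, in which Nfia, Nfib, Nfix and Nrp2 were low together.

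By Pearson's r 2 of the 36 pairs passed an adjusted p of 0.05, and by Spearman's rho 3 did. Nfib and Nfix had r = 0.92 (permutation p = 9.4e-04, adjusted 0.0338) and Spearman's rho 0.89 (permutation p = 9.0e-05, adjusted 0.0032). Without the 2 pools farthest from the median of Nfib, no-odour pool 4 and HFD pool 2, r was 0.55, and without no-odour pool 4 alone it was 0.69 (permutation p = 0.0082, adjusted 0.0545), while rho was then 0.71 (permutation p = 0.0015, adjusted 0.0262) and passed. Acsm4 and Ncam2, of opposite zones, had r = 0.69 (permutation p = 0.0019, adjusted 0.0347) and rho 0.71 (permutation p = 0.0015, adjusted 0.0266), and r was 0.67 without BFD pool 4 and no-odour pool 2, the farthest pools. Within the 6 NCD pools alone r was 0.78 for the first pair and 0.84 for the other.

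The third pair by rank was Nqo1 with Nfib, of opposite zones, with rho −0.65 (permutation p = 0.0028, adjusted 0.0338) and r = −0.59 (permutation p = 0.0166, adjusted 0.0997) over all pools. Its r was −0.46 without HFD pool 2 and no-odour pool 6, the farthest for Nqo1, and −0.70 (permutation p = 0.0022, adjusted 0.0343) without no-odour pool 4. Ncam2 and Nfia had r = 0.41 with all pools and 0.74 (permutation p = 1.1e-04, adjusted 0.0040) without no-odour pool 4. Nqo1 had a negative r with all 8 other members, from −0.02 with Acsm4 to −0.59 with Nfib. The number of pairs that passed by r, 2 with all pools, ran from 0 to 4 as each pool was left out.

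**Figure D3:**
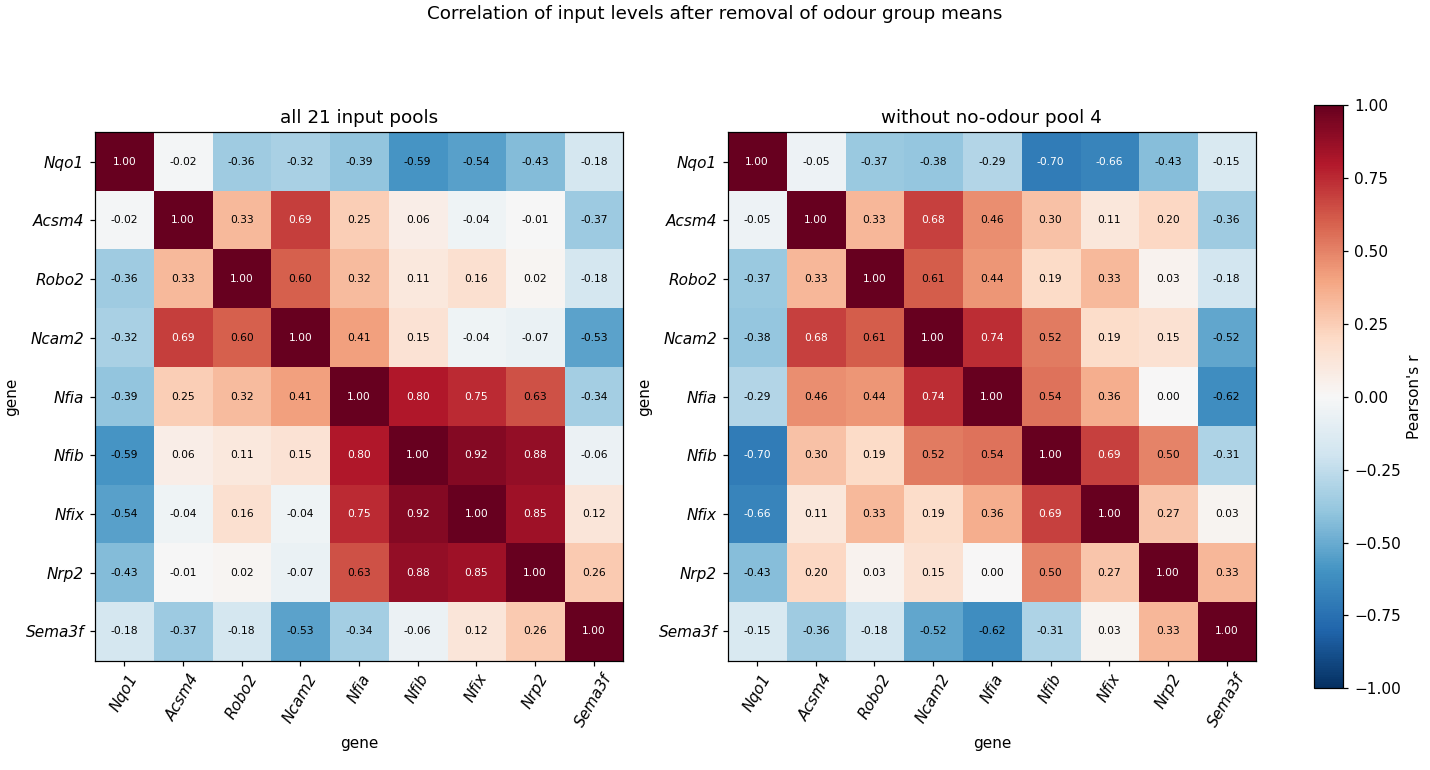
Pearson's r between the 9 genes (both axes) across input libraries after removal of odour group means, with all 21 pools on the left and without no-odour pool 4 on the right. The block of Nfia, Nfib, Nfix and Nrp2, with r from 0.63 to 0.92 on the left, runs from 0.00 to 0.69 on the right, while Acsm4 with Ncam2 stays at 0.69 and 0.68.

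Among 21163 genes, those that varied most like Nqo1 over the 21 inputs were H2afy (r = 0.90), Cavin1 (0.89), Kdelr2 (0.88), Atp6v1b2 (0.88) and Pgm1 (0.87). The other dorsal genes ranked 10558 (Acsm4) and 16816 (Robo2) in that order, and the ventral Nfib ranked 20105. For Ncam2 the nearest were Rb1 (0.95), Cul4b (0.92), Ubxn4 (0.92), Aqp4 (0.92) and Sgtb (0.92). In its order Acsm4 ranked 745, Robo2 1298, Nfia 3148 and Sema3f 19323, so that Acsm4 and Robo2 stood nearer to Ncam2 than any ventral member did. Without no-odour pool 4 Nfia came nearer, with r = 0.74 against 0.68 for Acsm4 and 0.61 for Robo2. These ranks describe likeness across pools that share group composition and libraries.

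Other genes of the guidance pathways give the setting of Robo2, Nrp2 and Sema3f. Of 8 genes of Slit ligands, Robo receptors and the srGAP proteins that bind Robo, 3 were higher and 0 lower in the pulldown without odour, beside 35.8% of all genes called (median log2 change 0.24, all genes 0.01), among them Robo1, a further Slit receptor (0.73, SE 0.07, adjusted p = 3.1e-09), and the ligand Slit1 (1.00, SE 0.11, adjusted p = 2.8e-08). With odour the list gave 3 higher and 1 lower with NCD, 1 and 2 with BFD, and 1 and 1 with HFD. The shares of all genes called were 46%, 41.3% and 42.7%. Slit1 was higher with each odour (0.71, 0.51 and 0.61). Robo1 fell on the ratio with BFD odour (−0.53, SE 0.10, adjusted p = 5.4e-04) and rose in the inputs with BFD (0.59, SE 0.08, adjusted p = 2.9e-05) and HFD odour (0.48, SE 0.08, adjusted p = 7.3e-04). Slit1 also rose in the inputs with BFD odour (0.61, SE 0.13, adjusted p = 6.8e-04). Of the 8 genes 2 passed in the inputs with BFD odour, beside 13.1% of all genes, and their median change was 0.57, beside 0.01 over all genes.

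Of 10 tested semaphorin, neuropilin and plexin genes, 5 were higher and 4 lower in the pulldown without odour, beside 35.8% of all genes called (median 0.16, all genes 0.01). Plxna1, a co-receptor of neuropilins, was higher (0.81, SE 0.09, adjusted p = 4.6e-08), as was Nrp1, the paralogue of Nrp2 (0.65, SE 0.09, adjusted p = 4.2e-07). The ligands Sema3d (−1.57, SE 0.17, adjusted p = 3.9e-08) and Sema3c (−1.28, SE 0.19, adjusted p = 2.5e-06) were lower. Of the 5 class 3 semaphorins tested besides Sema3f, 3 were lower and 1 was higher, as Sema3f was. With BFD odour 4 of the 10 rose in the inputs, beside 13.1% of all genes called there (1091 higher and 1676 lower): Plxna1 (0.67, SE 0.11), Nrp1 (0.45, SE 0.09), Plxna2 (0.39, SE 0.08) and Plxna4 (0.82, SE 0.16), with adjusted p from 7.5e-05 to 5.2e-04. On the ratio 0 of the 10 passed with NCD, BFD or HFD odour in edgeR, where 0.524%, 3.78% and 1.22% of all genes did.

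Nfic, the fourth nuclear factor I gene, did not pass in the pulldown without odour (−0.02, SE 0.09) and rose in the inputs with BFD odour (0.55, SE 0.11, adjusted p = 5.8e-04). Nfic was lower in the pulldown with NCD (−0.48, SE 0.08, adjusted p = 1.4e-05) and BFD odour (−0.62, SE 0.09, adjusted p = 1.3e-06). Of the 4 other immunoglobulin adhesion genes listed with Ncam2, 0 passed in the pulldown without odour (median 0.11), beside 35.8% of all genes, and 2, 2 and 1 were lower there with NCD, BFD and HFD odour, beside 46%, 41.3% and 42.7%. These were Nrcam (−0.36, −0.53 and −0.42) and, with NCD and BFD, Chl1 (−0.73 and −0.68). On the ratio 0 of the 4 passed with any odour, where 0.524%, 3.78% and 1.22% of all genes did. Of 10 genes of Nrf2, the factor that induces Nqo1, and related enzymes, 1 was higher and 2 lower in the pulldown without odour, beside 35.8% of all genes called (median −0.05): Srxn1 (0.70, SE 0.10, adjusted p = 7.9e-07), Gclm (−0.41, SE 0.06, adjusted p = 8.0e-07) and the cystine carrier Slc7a11 (−0.87, SE 0.13, adjusted p = 1.9e-06). None of the 10 passed on the ratio with any odour, beside the same 0.524%, 3.78% and 1.22% of all genes. In the inputs with BFD odour the haem oxygenase Hmox1 (−0.57, SE 0.09, adjusted p = 8.8e-05) and the glutathione reductase Gsr (−0.34, SE 0.06, adjusted p = 1.5e-04) fell. Of the 2 tested relatives of Acsm4, 0 passed without odour (median −0.52), beside 35.8% of all genes. Acsm1 was lower in the pulldown with NCD odour (−1.78, SE 0.25, adjusted p = 6.6e-07), and neither passed with BFD odour. Over all genes 46% and 41.3% passed there.

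Retinoic acid is made unevenly across the epithelium, and of 8 genes of its synthesis and reception 2 were higher and 4 lower in the pulldown without odour, beside 35.8% of all genes called (median −0.30). The receptors Rarg (0.70, SE 0.07, adjusted p = 2.7e-09) and Rara (0.57, SE 0.07, adjusted p = 2.0e-07) were higher, and the receptor Rarb (−0.58, SE 0.07, adjusted p = 4.2e-08) and the enzyme Aldh1a1 (−0.49, SE 0.07, adjusted p = 7.1e-07) were lower. Rarg rose in the inputs with each odour, by 0.39 with NCD, 0.36 with BFD and 0.41 with HFD (SE 0.05, 0.06 and 0.06). On the ratio 0 of the 8 passed with NCD, BFD or HFD odour, where 0.524%, 3.78% and 1.22% of all genes did.

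Receptor families placed mostly in the dorsal zone were set beside the zone genes, without a check of the zone of each receptor. Of 8 tested trace amine-associated receptors, a family that is mostly but not wholly dorsal, 1 was lower in the pulldown without odour. This was Taar4 (−1.50, SE 0.24, adjusted p = 7.8e-06), and the median of the 8 was −0.68. Of 89 tested class I olfactory receptors, also dorsal, 1 was higher and 17 lower (median −0.64). Of 775 other olfactory receptors 104 were higher and 73 lower (median −0.13). Over all genes 35.8% were called and the median was 0.01. On the ratio the class I median was 0.46 with NCD, 0.54 with BFD and 0.78 with HFD odour, where 0, 2 and 2 of the 89 passed, all higher, and the median of the other receptors was 0.20, 0.27 and 0.25, where 17, 31 and 10 of the 775 passed; the shares over all genes were 0.524%, 3.78% and 1.22%. In the inputs the class I median was −0.01, −0.04 and 0.04 with the 3 odours.

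In the pulldown with NCD, BFD and HFD odour these lists gave other counts. The semaphorin list had 4 higher and 4 lower, 1 and 4, and 2 and 4 of 10, the Nrf2 list 1 and 4, 1 and 3, and 1 and 3 of 10, and the retinoic acid list 1 and 4, 1 and 4, and 1 and 3 of 8. Of the 89 class I receptors 9 were higher and 10 lower, then 8 and 9, then 11 and 7, and of the 775 others 184 and 75, 181 and 37, and 183 and 66. Taar4 did not pass with NCD (−0.20, adjusted p = 0.394) or BFD odour (−0.26, adjusted p = 0.307). Taar7d was lower with NCD odour (−1.10, SE 0.27, adjusted p = 7.8e-04), and no trace amine-associated receptor passed with BFD odour. Over all genes 46%, 41.3% and 42.7% were called.

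Markers of the cell types in the tissue were present, and no marker in any list was at 0 counts in all libraries. Summed over 8 markers, mature sensory neurons had 16140 ± 1503 CPM in the inputs without odour and 17320 ± 593, 15900 ± 670 and 16770 ± 1208 with NCD, BFD and HFD odour (SD, n = 5, 6, 5 and 5), with Omp the most abundant in the inputs. In the pulldowns the sums were 17150 ± 1868, 21890 ± 914, 22030 ± 2659 and 20470 ± 1222 CPM. The mean neuron sum was thus higher in the pulldowns after every odour. Immature neuron markers had pulldown sums of 1032 ± 46.5 CPM without odour and 926 ± 29.7, 851 ± 69.7 and 888 ± 28.2 with odour, with Dpysl5 the most abundant. Progenitor markers, led by Mki67, had input sums of 129.7 ± 15.8, 142 ± 9.27, 155 ± 6.78 and 152 ± 7.01 CPM, and pulldown sums of 158 ± 2.77, 131 ± 5.95, 126 ± 8.09 and 137 ± 6.12.

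Olfactory gland markers moved most. Their pulldown sum was 575 ± 33.1 CPM without odour and 2142 ± 174, 2469 ± 491 and 3885 ± 184 with NCD, BFD and HFD odour, with Obp2a the most abundant, while the input sum was 1252 ± 450, 903 ± 52.4, 1218 ± 99.7 and 1728 ± 251. On the ratio 4 of the 6 gland markers rose with each odour, beside 0.524%, 3.78% and 1.22% of all genes called. In the pulldown without odour 6 of 7 blood and immune markers were higher, with sums of 541.5 ± 155.5 CPM in the inputs and 1850 ± 243 in the pulldowns, led there by Hbb-bs, as were 5 of 6 immature and 4 of 8 mature neuron markers. All 6 supporting cell markers were lower in the pulldown without odour, led by Cyp2g1, as were 5 of 5 fibroblast markers, 4 of 6 gland and ensheathing glia markers each and 3 of 4 horizontal basal cell markers, beside 35.8% of all genes called in either direction. The fibroblast sum in the inputs, led by Col1a1, was 2431 ± 313 CPM without odour and 1821 ± 48.9, 1720 ± 94.3 and 2078 ± 181 with odour. In the pulldown of BFD pool 1, where Nfia and Nfib stood apart, the supporting cell sum was 3567 CPM, the highest of its group (median 1702), and the horizontal basal cell sum was 39.0 CPM (median 9.05), led by Krt5. What share these cell types, the ribosomal RNA and the libraries that stood apart had in the results of the zone genes was not tested beyond the values given.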

How the data were processed

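The deposited table held expected counts per gene, estimated by the authors with Salmon on GRCm38 (30.9% were not whole numbers). It named 44118 of 44674 genes in GENCODE M21; the 556 others carried 0.525% of counts. Counts were rounded and fitted in R 4.3.3 with edgeR 4.0.16 (TMM, filterByExpr with a minimum count of 10 over 8 groups, robust quasi-likelihood, Benjamini-Hochberg over 21168 genes, adjusted p under 0.001, the study's threshold). The ratio fit combined pool terms with terms of pulldown within each odour, the input fit had 1 term per odour, each with 17 residual degrees of freedom; the biological coefficient of variation was 12.0% and 11.7%. Log2 CPM used a prior count of 2. DESeq2 1.42.0, other filters, scalings and covariates, each pool left out, and a threshold of 0.05 were alternatives. The fits were also run on simulated data, from which no result is given here. The members and lists were chosen with earlier results of these data known. Named genes were the 9 members, up to 4 genes per other list by smallest p among those that passed, the 5 nearest neighbours of Nqo1 and of Ncam2, and the most abundant marker of each cell type. Fabp7 led the ensheathing glia list, Kdr the endothelial list, Lyz2 the blood and immune list and Foxj1 the ciliated list in the inputs.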

Additional observations from a re-analysis of the deposited data

Results flagged for a closer look

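In 15 of the 108 groups of pools examined (9 genes, 3 measures and 4 odours), 1 pool was far from the others of its group, where chance sets about 1 in 20 groups apart. As these groups share pools and libraries, they are not independent, and the 15 cannot be set against that rate. No explanation was weighed.

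No-odour pool 4 gave 6 of them. Its pulldown of Nqo1 was low, at 44.4 CPM (others 51.2 to 51.7). Its inputs were low for Nfia (139 CPM, others 168 to 173), Nfib (116 CPM, others 190 to 197), Nfix (113 CPM, others 168 to 189) and Nrp2 (176 CPM, others 221 to 231). Its log2 ratio of Nfib was high, at 0.69 (others −0.18 to 0.03).

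BFD pool 1 gave 4. The log2 ratio of Nqo1 was high, at −0.26 (others −0.52 to −0.48), and so was that of Nfia, at −0.32 (others −1.11 to −1.02). Its pulldowns were high for Nfia (155 CPM, others 88.1 to 95.9) and Nfib (215.0 CPM, others 176 to 184).

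The other 5 fell in 5 further pools. Nfib was high in the pulldown of NCD pool 2 (205 CPM, others 181 to 188) and low in that of HFD pool 3 (186 CPM, others 194 to 197). Nfix was low in the input of BFD pool 3 (215 CPM, others 228 to 231), Nrp2 was high in the input of NCD pool 4 (225 CPM, others 208 to 214), and the log2 ratio of Sema3f was low in HFD pool 1 (0.41, others 0.79 to 0.85).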

How the results depend on the processing

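No result changed direction with a call on both sides. Among the counts of members that passed and the zone differences, 507 values under alternatives stayed near the reported one and 64 moved; of single members, 4118 kept their side of the threshold and direction, 66 lost a call, 34 gained one and 120 moved without a call.

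At an adjusted p under 0.05 the counts were 8 for the pulldown against the input with NCD odour (67.1% of all genes), 3 for the ratio over no odour with BFD (22.5%) and 3 with HFD (15.7%), 1 for the ratio with HFD against NCD odour (0.0709%), and for the inputs 3 (22.5%), 6 (38.5%) and 3 (20.7%) with NCD, BFD and HFD odour over none and 1 (2.41%) with BFD against NCD odour. DESeq2 with the same design gave 1 for the ratio with HFD over no odour, 1 for HFD against NCD odour, and for the inputs 1 (NCD), 3 (BFD) and 2 (HFD over none) and 1 (BFD against NCD). DESeq2 on the pulldown divided by the input gave 2 for HFD over no odour (5.45% of all genes) and 1 for HFD against NCD odour (0.0803%). For the settings that follow, the share of all genes called is not given. Their counts therefore describe the members alone and do not set them apart from other genes. The pulldown libraries alone gave 0 with BFD and 1 with HFD odour over none. The ribosomal RNA share as a covariate gave 3 for the pulldown against the input with BFD odour, and 0 for the ratio and 0 for the input with BFD over no odour. Fitting only the groups compared gave 0 and 0 for these last, and 1 for the input with BFD against NCD odour. No filter beyond 1 count gave 1 for the input with HFD over no odour, and so did leaving out no-odour pool 4 and BFD pool 1 together (1), chosen after the data were seen; that setting also exchanged Nqo1 for Nfia on the ratio with BFD odour. The cause was not tested.

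The replicate block gave 0 for the ratio and 0 for the input with BFD over no odour, and lost Nfix in the pulldown against the input with BFD and HFD odour (adjusted p = 0.0015 in both). The share of all genes called with the replicate block is not given either. Pools with the same replicate number were no more alike across odours (median r 0.020 in the inputs and 0.009 in the pulldowns) than others. The pulldown and input of the same pool were hardly more alike (median r 0.014) than those of different pools of a group (−0.004). This check therefore cannot decide whether the replicate numbers pair the pools across odours. The pairing of a pulldown with its input rests on the study's methods.

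Leaving out each pool in turn gave, for the pulldown against the input, from 5 to 6 with NCD, from 3 to 6 with BFD and from 5 to 7 with HFD odour, from 0 to 1 for the ratio and from 0 to 1 for the input with BFD over no odour, from 0 to 1 for the input with HFD over no odour and with BFD against NCD odour, and from 0 to 4 correlated pairs. The share of all genes called in these refits is not given, so these counts also describe the members alone.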
